A study of Mus musculus with 56 samples.

Results

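The genes described here are the early growth response factors Egr1, Egr2, and Egr3 and the corepressors Nab1 and Nab2, in 56 lists of ChIP-seq peaks from mouse bone marrow-derived macrophages (BMDMs). In ChIP-seq, DNA is recovered together with the protein or histone mark that an antibody binds, and is then sequenced. A peak was taken as a member where the deposited annotation named 1 of these 5 genes as the gene with the nearest transcription start, which held for 910 of 1610519 peaks. Egr3 had 310 peaks, Egr2 268, Nab1 151, Egr1 125, and Nab2 56. In the RefSeq annotation of GRCm38, Egr1 lies on the forward strand at chr18:34861207-34864956, Egr2 on the forward strand at chr10:67534469-67542188, Egr3 on the forward strand at chr14:70077317-70082613, Nab1 on the reverse strand at chr1:52455849-52500712, and Nab2 on the reverse strand at chr10:127660918-127666703.

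EGR proteins are zinc-finger transcription factors of the immediate early class, which cells switch on within minutes of a signal through serum response factor (SRF), its ternary complex partners, and MAP kinases. NAB proteins bind a conserved domain of EGR proteins and recruit repressor complexes, and Nab2 is itself a target of EGR factors, so the pair forms a feedback loop. In macrophages, Egr1 and Egr2 have been tied to differentiation, and Egr2 marks cells exposed to interleukin-4 (IL-4), while NF-κB p65 and the immediate early genes answer lipopolysaccharide (LPS).

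Cells came from wild-type mice of 8 to 12 weeks, were differentiated with L929 supernatant, and were crosslinked with DSG and formaldehyde. In the first experiment, samples were untreated (ctrl) or exposed to 20 ng/ml IL-4 for 1 hr (1hIL4), with 4 samples for each of 8 antibodies, against RNAPII-pS5 and RNAPII-pS2, the mark H3K27Ac, p300, PU.1, and HDAC1 to HDAC3. In the second, samples were untreated (ctrl_ctrl), exposed to IL-4 for 24 hr (24hIL4_ctrl), exposed to 100 ng/ml LPS for 1 hr (ctrl_1hLPS), or pretreated with IL-4 for 24 hr and then exposed to LPS for 1 hr (24hIL4_1hLPS), and RNAPII-pS5, RNAPII-pS2, and p65 were measured in 8 samples each. Every group held 2 samples. The paper's figure legends describe the ChIP-seq data as from 2 independent biological replicates. Nothing in the labels ties the samples to separate animals or cultures, and p-values measure only the spread between these samples.

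The lists of the 8 antibodies other than H3K27Ac held 8440 to 71027 peaks per sample, and the H3K27Ac lists held 26982 to 27797 regions. No read counts were in these lists, so depth is unknown. For H3K27Ac the score of a peak is a signal of normalized tags. For the other antibodies it was read as a −log10 p- or q-value from its range. The lowest score, 1.3, is under what the paper's q cutoff would allow on either scale, so the scale is uncertain. Scores may grow with depth and are compared here only within an antibody. In 4 lists, those of RNAPII-pS2 in the first experiment, peak names hold the treatment that the labels give to the other group, while 48 other lists match. The labels were kept, and every direction from these 4 libraries would turn under the peak names. The p300 library labelled ctrl replicate 1 had 44787 peaks against 66710 to 69360 in the other 3, and the antibody label of the HDAC3 samples gives the catalogue number of the H3K27Ac antibody. All 6 macrophage markers, Spi1, Csf1r, Cd68, Adgre1, Itgam, and Lyz2, had a RNAPII-pS5 peak in every sample. Of 4 markers each of T cells, B cells, neutrophils, and fibroblasts, 2, 1, 1, and 0 had one in every sample of the first experiment, with summed scores of 108.3 to 158.4, 47.6 to 102.6, 2.97 to 16.6, and 0 to 3.39 per sample against 554.8 to 716.7 for the macrophage markers. In the second experiment 1, 1, 0, and 0 did. The part of other cells in the results was not tested.

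The 910 peaks fell at 78 places, 24 each near Egr2 and Nab1, 15 near Egr3, 12 near Egr1, and 3 near Nab2. Distances are given in kb from the start used by the deposited annotation, negative where upstream. Peaks of all 9 antibodies met at 5 places, 3 near Egr2 and 2 near Egr3. The place at −11.3 kb of Egr3 had a peak in 56 of 56 samples and that at −20.2 kb in 55. The Egr2 start had one in 43 samples, and the Nab1 start in 42. All Egr3 peaks lay upstream of the gene, from −98357 to −643 bp, so its 147 peaks annotated as intronic were in introns of other transcripts, Pebp4 among them. Over the Egr3 gene and the 1 kb before it only 10 peaks were listed, with a highest score of 12.8, so the polymerase values of Egr3 below describe the DNA upstream and not its transcribed part. Of the peaks of Egr2, 204 were intergenic, and of those of Egr1, 91. The nearest start does not tell which gene a place acts on.

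**Figure D1:**
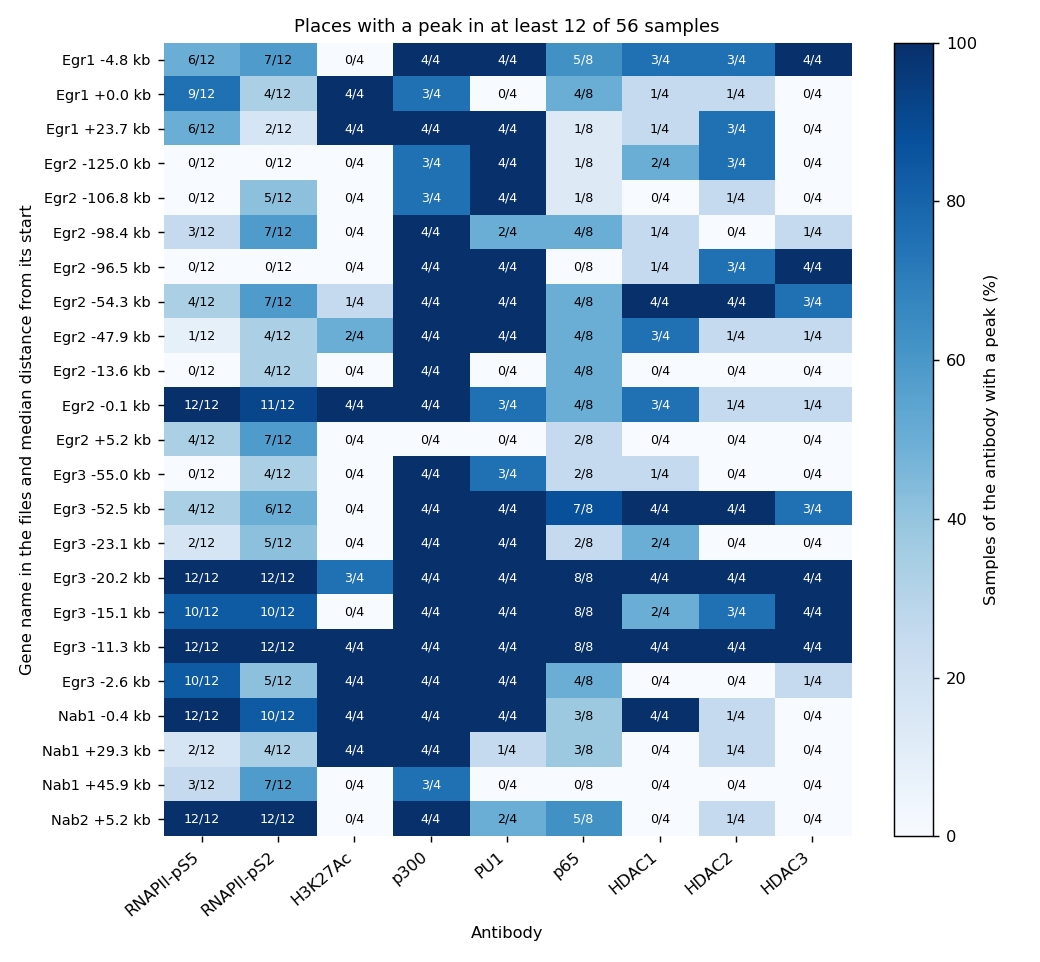
Number of samples with a peak (cell text and shade, out of the samples of that antibody) at the 23 places near the 5 genes that had a peak in at least 12 of 56 samples; rows are places by gene and kb from its start, and columns are antibodies. The row at −11.3 kb of Egr3 is filled for all 9 antibodies, and the places near Nab2 lie downstream of its start.

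Sequences are shown for the places on which the p65 and RNAPII results turn, from the RefSeq genome (GRCm38.p6, forward strand), with motif matches in capitals. Motifs were searched on both strands in windows of 200 bp around the midpoint of a p65 region. AP-1 (TGANTCA) was found in 22.9% of 37556 p65 regions, the κB consensus in 13.9%, C/EBP (TTGCNNAA) in 15.2%, and the CArG box, which SRF binds, in 1.31%. Of the 28 p65 regions near the 5 genes, 6 held AP-1, 6 the κB consensus, 5 C/EBP, and 3 a CArG box. An EGR motif (GCGNGGGCG, in 0.732% of p65 regions) was in 2 of the 28, at −0.1 kb of Nab1 and 4.6 kb of Nab2. A STAT6 motif (TTCNNNNGAA, 8.4% of p65 regions) was in 1. A match is a description of the letters and not of binding.
The region at −98.5 kb of Egr2 (chr10:67439193-67439392, intergenic, with an AP-1 match) had RNAPII and p65 peaks after LPS.
Egr2 −98.5 kb: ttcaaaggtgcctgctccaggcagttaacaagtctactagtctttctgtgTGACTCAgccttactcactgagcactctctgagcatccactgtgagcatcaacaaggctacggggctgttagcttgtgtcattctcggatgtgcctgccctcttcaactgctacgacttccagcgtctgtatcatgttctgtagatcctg
The region at −13.7 kb (chr10:67524060-67524259, AP-1) had p65 peaks in all 4 LPS samples.
Egr2 −13.7 kb: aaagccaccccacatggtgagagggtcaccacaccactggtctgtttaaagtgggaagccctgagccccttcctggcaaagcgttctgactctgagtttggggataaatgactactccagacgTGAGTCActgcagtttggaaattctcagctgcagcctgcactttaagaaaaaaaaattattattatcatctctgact
The region at 4.6 kb (chr10:67542321-67542520, past the end of Egr2, with a κB and an AP-1 match) had p65 peaks in the 2 pretreated LPS samples and no other.
Egr2 4.6 kb: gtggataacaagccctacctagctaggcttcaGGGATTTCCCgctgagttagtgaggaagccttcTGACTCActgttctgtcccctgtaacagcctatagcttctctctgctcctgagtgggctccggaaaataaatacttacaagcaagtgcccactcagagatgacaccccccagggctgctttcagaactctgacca
The region at −23 kb of Egr3 (chr14:70054296-70054495, in an intron of Pebp4, with a κB match) had the same pattern.
Egr3 −23 kb: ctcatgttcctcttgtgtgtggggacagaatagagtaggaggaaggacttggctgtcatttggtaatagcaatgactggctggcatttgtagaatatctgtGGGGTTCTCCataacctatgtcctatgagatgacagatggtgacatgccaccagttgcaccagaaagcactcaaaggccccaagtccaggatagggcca
The 250 bp before a RefSeq start of Egr2 (chr10:67537316-67537565) lie in the p65 region at −0.4 kb and hold a CArG box, which 1.47% of 32851 promoters of the same length also held.
Egr2 promoter: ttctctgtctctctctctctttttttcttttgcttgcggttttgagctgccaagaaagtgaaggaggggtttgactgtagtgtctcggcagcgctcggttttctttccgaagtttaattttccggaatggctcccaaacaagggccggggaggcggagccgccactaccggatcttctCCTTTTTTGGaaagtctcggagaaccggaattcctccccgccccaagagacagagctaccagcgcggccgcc

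The effect of 1 hr of IL-4 was first examined for H3K27 acetylation, a mark of active promoters and enhancers. Acetylation rose near Egr1 and Egr2 and fell at 2 places upstream of Egr3. The summed signal of Egr1 was 108 and 105.3 in the untreated samples and 171.2 and 175.3 after IL-4, with no overlap. The log2 change was 0.71 ± 0.06 (SE, adjusted p = 0.0031 in limma). Egr2 had 243.7 and 286.2 untreated and 442.4 and 387.4 after IL-4, a log2 change of 0.65 ± 0.11 (adjusted p = 0.019). Egr3 had 303.9 and 535.5 untreated and 363.6 and 325.7 after IL-4, which overlapped (adjusted p = 0.60). Nab1 had 187.2 and 214.9 untreated and 216.5 and 221.5 after IL-4 (adjusted p = 0.31). In these bulk samples, fewer cells that carry a mark and less of it per cell cannot be told apart. In all, 2 of 4 genes with a region were called, where 45.5% of all genes were, and a gene here was called at an adjusted p of at most 0.1.

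At single regions, 5 of 9 were called, 3 higher and 2 lower, beside 54% of all regions. The region at −0.5 kb of Egr2 had signals of 243.7 and 243.7 untreated and of 399.7 and 387.4 after IL-4 (log2 change 0.74 ± 0.04, adjusted p = 0.00082). At 23.6 kb of Egr1, past the end of the gene, the signals were 49.4 and 43.4 untreated and 93.7 and 100.0 after IL-4 (1.12 ± 0.10, adjusted p = 0.0027). At −0.5 kb of Egr1 the change was 0.40 ± 0.07 (adjusted p = 0.019). The opposite was measured at −11 kb of Egr3, where the signals were 215.5 and 220.9 untreated and 145.4 and 124.3 after IL-4 (−0.65 ± 0.09, adjusted p = 0.0097). At −2.7 kb of Egr3 they were 88.4 and 80.3 untreated and 53.0 and 52.8 after IL-4 (−0.62 ± 0.08, adjusted p = 0.0075). These 5 calls held when any 1 library was left out. No H3K27Ac region carried the name Nab2. A region 1160 and 1181 bp upstream of Nab2, singled out after its values were seen and named for the neighbour 1700012D01Rik, was listed only in the IL-4 samples, with 446.7 and 435.3, and the cause was not tested.

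The acetyltransferase p300 is given with all 4 libraries and without ctrl replicate 1, which stood apart. Near the 5 genes, 11 of 46 regions were called with all libraries, 10 higher and 1 lower, where 26.5% of all regions were called, and 15 of 46 without it, where 29.8% were. At 23.8 kb of Egr1 the scores were 17.3 and 45.4 untreated and 87.5 and 99.2 after IL-4, with a log2 change of 1.06 ± 0.23 (adjusted p = 0.00067) and of 1.12 ± 0.18 without ctrl replicate 1 (adjusted p = 0.0032). This place is that of the gain in H3K27Ac. The region with a lower score, at −4.8 kb of Egr1, gave −0.67 (adjusted p = 0.034) and was not called without ctrl replicate 1 (−0.53) or IL-4 replicate 1 (−0.42). At −15.1 kb of Egr3 they were 22.0 and 66.5 untreated and 129 and 123 after IL-4, a log2 change of 1.05 ± 0.21 (adjusted p = 0.00037) and of 1.01 ± 0.14 without that library. At −106.8 kb of Egr2 no peak and 12.6 were listed untreated and 43.9 and 43.7 after IL-4 (2.75 ± 0.51, adjusted p = 0.00011, and 1.89 ± 0.30 without ctrl replicate 1). The last call ended without IL-4 replicate 1, at 2.73. At −11.3 kb of Egr3, where acetylation was lower, p300 had 142 and 210 untreated and 187 and 203 after IL-4 and was not called.

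Summed over each gene, p300 was called at 1 of 5 genes, where 27.7% of all genes were called. Nab1 had 16.2 and 115 untreated and 164 and 153 after IL-4, a log2 change of 1.02 ± 0.32 (adjusted p = 0.057). The low untreated value is that of ctrl replicate 1, and without it the change was 0.45 ± 0.14 (adjusted p = 0.034). Without centring the change was 1.87 and was not called. Egr1 had a log2 change of 0.30 (adjusted p = 0.15), and of 0.35 without ctrl replicate 1 (adjusted p = 0.034), so that 2 of 5 genes were called in that fit, beside 39.4% of all genes. The changes of Egr2, Egr3, and Nab2 with all libraries were 0.04, −0.35, and 0.79 (adjusted p = 0.87, 0.25, and 0.30), and that of Egr3 was 0.50 without centring.

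Polymerase phosphorylated at serine 5 of its tail marks initiation, and at serine 2 it marks elongation. RNAPII-pS5 rose over Egr2, the member of the family known as a marker of IL-4 exposure. The summed scores of Egr2 were 48.8 and 50.8 untreated and 102.0 and 88.2 after IL-4, and the groups did not overlap. The log2 change was 0.97 ± 0.21 (adjusted p = 0.084), which was no longer called without IL-4 replicate 1 (0.92), without centring (0.93), without the variance trend (0.97), for peaks that were not intergenic (1.05), or for the highest peak (0.86). Egr2 was the 1 of 5 genes called, beside 3.38% of all genes. Its region at 0.4 kb had 42.7 and 37.9 untreated and 76.3 and 68.8 after IL-4 (0.96 ± 0.18, adjusted p = 0.035), a call that held without any 1 library. The other of 2 regions called among 15, with 6.34% of all regions called, was at 6.0 kb of Nab2. This region spans the 3′ ends of Nab2 and of its neighbour Stat6. It had 32.0 and 22.8 untreated and 9.6 and 8.7 after IL-4 (−1.45 ± 0.31, adjusted p = 0.053), and was not called without centring (−1.56). Summed over the gene, Nab2 had 45.6 and 30.7 untreated and 20.2 and 17.0 after IL-4 (−0.97, adjusted p = 0.18). The summed changes of Egr1, Egr3, and Nab1 were 0.30, 0.00053, and 0.09 (adjusted p = 0.59, 1.00, and 0.90).

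In the libraries labelled RNAPII-pS2, Egr2 and Nab2 had values opposite in sign to those of RNAPII-pS5, and these are the 4 libraries whose peak names carry the other treatment. Egr1 had the same sign in both forms, at 0.39 in RNAPII-pS2 (adjusted p = 0.75), while Egr3 and Nab1 had −0.27 and −0.88 (adjusted p = 0.75 and 0.23). The libraries labelled untreated had 42.5 and 52.2 over Egr2 and those labelled IL-4 had 15.65 and 26.99, a log2 change of −1.12 ± 0.27 (adjusted p = 0.016). Peaks named for Nab2 had 41.2 and 51.8 in the libraries labelled untreated and 71.5 and 75.2 in those labelled IL-4. The log2 change was 0.75 ± 0.20 (adjusted p = 0.036 in limma). These 2 of 5 genes were called, with 8.61% of all genes, and neither was called without centring (−1.20 and 0.67) or without the variance trend. The call of Egr2 ended without IL-4 replicate 1 (−0.86), ctrl replicate 1 (−1.04), or ctrl replicate 2 (−1.21), and that of Nab2 without IL-4 replicate 1 (0.64) or ctrl replicate 2 (0.67). Among regions, 4 of 11 were called, 1 higher and 3 lower, beside 6.86% of all. They lay at 0.2 and 5.0 kb of Egr2, at −15.0 kb of Egr3, and at 5.7 kb of Nab2, and each was lost when 1 of its libraries was left out, with changes of −1.29 without ctrl replicate 1, −0.69 without IL-4 replicate 1, −2.40 or −2.15 without an IL-4 replicate, and 0.64 or 0.70 without IL-4 replicate 1 or ctrl replicate 1.

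None of the 5 genes was called for the deacetylases or for PU.1, the factor that sets macrophage identity. For HDAC1, 0 of 4 genes and 0 of 10 regions were called in limma, with 1 gene and 6 regions at an unadjusted p under 0.05, where 0% of 12319 genes and 0% of 27384 regions passed over the whole lists and 970 genes and 3595 regions had an unadjusted p under 0.05. The summed HDAC1 changes of Egr1, Egr2, Egr3, and Nab1 were −1.20, −0.25, 0.55, and −0.14, and Nab2 had no peak. HDAC2 gave 0 of 4 genes (0.755% of all) and 0 of 9 regions (0.00404% of all), with 0 genes and 1 region at an unadjusted p under 0.05. The HDAC2 changes of the same 4 genes were −0.85, 0.60, 0.04, and −0.11, and Nab2 had 1 peak of 2.6 in an untreated sample. HDAC3 gave 0 of 3 genes (7.17%) and 0 of 8 regions (2.44%), with 2 regions and 1 gene, Egr1, at an unadjusted p under 0.05. Egr1 had a log2 change of −0.87 (adjusted p = 0.15) in HDAC3, Egr2 one of −0.77, and Egr3 one of −0.16, or 0.26 without centring, while Nab1 and Nab2 had no peak. For PU.1, 0 of 5 genes (2.72% of all) and 0 of 33 regions (0.285%) were called, with 0 genes and 0 regions at an unadjusted p under 0.05. The PU.1 changes were 0.10 at Egr1, 0.15 at Egr2, −0.13 at Egr3 (0.15 without centring), 0.21 at Nab1, and 0.83 at Nab2. The place at −11.3 kb of Egr3 illustrates these values, with HDAC3 at 92.6 and 84.5 untreated and 91.3 and 94.5 after IL-4. PU.1 there had 91.4 and 86.8 untreated and 97.7 and 118 after IL-4.

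**Figure D2:**
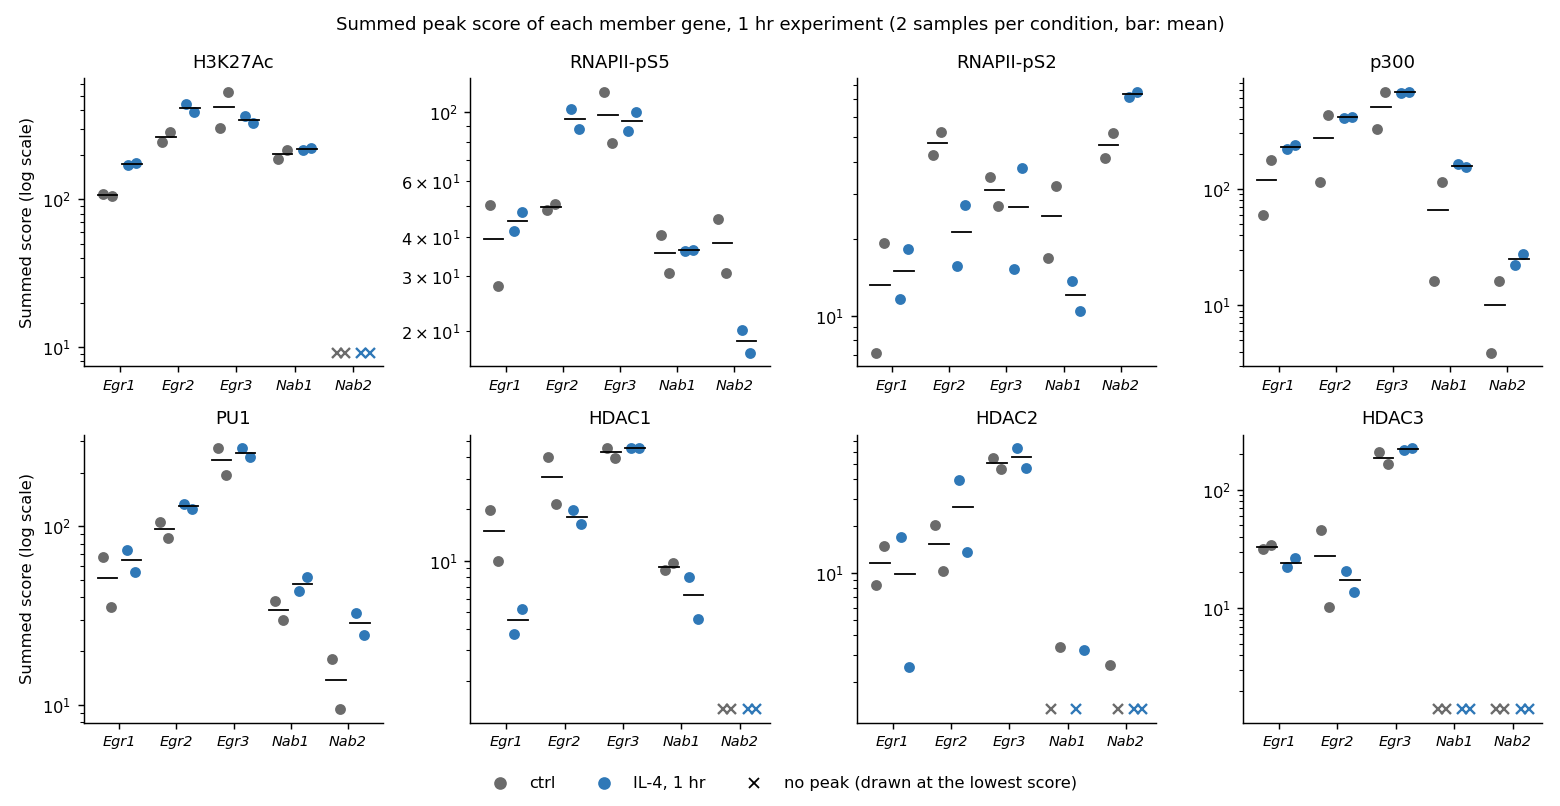
Summed peak score (log axis) of each of the 5 genes for 8 antibodies without and with 1 hr of IL-4; points are samples, bars are means of 2 samples, and a cross marks a sample with no peak. The H3K27Ac points of Egr1 and Egr2 are higher after IL-4 without overlap, the RNAPII-pS5 points of Egr2 likewise, and no HDAC or PU.1 difference was called.

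The second experiment asked how 24 hr of IL-4 changes the answer to LPS. Summed over its peaks, RNAPII-pS5 of Egr2 was higher after either agent, while 1 of its regions, at −0.7 kb, was listed only in the untreated samples. Its summed scores were 8.39 and 12.4 untreated, 32.9 and 36.4 after IL-4, 23.4 and 20.8 after LPS, and 37.0 and 31.8 in pretreated cells after LPS. The untreated samples were the lowest, and the other 3 groups did not overlap with them. LPS gave a log2 change of 1.44 ± 0.29 (adjusted p = 0.013) and IL-4 one of 1.69 ± 0.29 (adjusted p = 0.015), and both calls held without any 1 library. The LPS call was lost for peaks that were not intergenic (0.45) and for the highest peak (0.84), and the IL-4 call for the highest peak (1.34). Pretreated and not pretreated cells under LPS differed by 0.35 (adjusted p = 0.52). The interaction, the change by LPS in pretreated cells minus that in the others, was −1.34 (adjusted p = 0.11).

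The untreated samples were also the lowest for RNAPII-pS2 at Egr2. The summed scores were 11.0 and 5.68 untreated, 59.3 and 40.7 after IL-4, 113 and 93.4 after LPS, and 82.1 and 104 after both. LPS gave a log2 change of 3.48 ± 0.34 (adjusted p = 0.00084) and IL-4 one of 2.70 ± 0.34 (adjusted p = 0.0029), and both held without any 1 library. Under LPS, pretreatment gave −0.20 (adjusted p = 0.81). The interaction was −2.90 ± 0.48 (adjusted p = 0.024), and it was not called without pretreated LPS replicate 1 (−2.72).

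By contrast, RNAPII-pS5 near Egr3, all of it upstream of the gene, fell with IL-4. The summed scores were 123 and 129 untreated, 83.0 and 74.2 after IL-4, 112 and 118 after LPS, and 56.1 and 65.2 after both. The untreated and LPS samples lay above all samples with IL-4. IL-4 alone gave −0.76 ± 0.13 (adjusted p = 0.014) and pretreatment under LPS −1.21 ± 0.13 (adjusted p = 0.0072), and both held without any 1 library. LPS alone gave 0.19 (adjusted p = 0.31). The call for IL-4 ended without the variance trend and, at −0.06, for peaks that were not intergenic.

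RNAPII-pS2 near Egr3 had 306 and 267 untreated, 110 and 152 after IL-4, 266 and 243 after LPS, and 156 and 168 after both. IL-4 gave −1.07 ± 0.12 (adjusted p = 0.0019) and pretreatment under LPS −0.70 ± 0.12 (adjusted p = 0.013), held without any 1 library, although the latter was not called without the variance trend or for peaks that were not intergenic (−0.25). LPS gave −0.39 ± 0.12 (adjusted p = 0.036), a call lost without LPS replicate 1 (−0.39), LPS replicate 2 (−0.35), ctrl_ctrl replicate 1 (−0.35), centring (−0.17), or the variance trend, and for peaks that were not intergenic, at −0.0047.

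The summed score of peaks named for Nab2 fell with LPS in both polymerase forms, and under LPS it was higher in pretreated cells. The RNAPII-pS5 scores were 31.9 and 23.2 untreated, 40.9 and 38.3 after IL-4, 7.13 and 10.8 after LPS, and 20.1 and 33.0 after both. The LPS samples were the lowest. LPS gave −1.31 ± 0.33 (adjusted p = 0.026), lost without LPS replicate 1 (−0.97) or ctrl_ctrl replicate 1 (−1.14), and IL-4 alone gave 0.47 (adjusted p = 0.48). Under LPS, pretreated cells were higher by 1.27 ± 0.33 (adjusted p = 0.051), lost without pretreated LPS replicate 2 (0.93) or LPS replicate 1 (0.95), with the upper 50% of peaks (1.03), and for the highest peak (0.68).

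In RNAPII-pS2, Nab2 had 19.8 and 16.2 untreated, 41.3 and 33.2 after IL-4, 10.4 and 9.9 after LPS, and 20.4 and 25.8 after both. LPS gave −1.05 ± 0.29 (adjusted p = 0.029), lost without ctrl_ctrl replicate 1 (−0.96) and for the highest peak (−0.65). IL-4 gave 1.11 ± 0.29 (adjusted p = 0.034), lost without IL-4 replicate 1 (0.89) or ctrl_ctrl replicate 2 (1.01). Under LPS, pretreated cells were higher by 1.13 ± 0.29 (adjusted p = 0.046), lost without either pretreated LPS replicate (1.32 and 0.94) or either LPS replicate (1.11 and 1.13) and with the upper 50% of peaks (0.88). These peaks lie around the 3′ ends of Nab2 and of Stat6, on the other strand, which overlap by 70 bp. The merged RNAPII-pS2 region at 6.2 kb, chr10:127659347-127662077, runs past the end of Nab2 at 127660918 into Stat6, which ends at 127660987. Polymerase on the 2 genes cannot be told apart there. Peaks named for Stat6, the factor that IL-4 activates, gave a log2 change with LPS of −1.37 in RNAPII-pS2 (adjusted p = 0.062) and of 0.13 in RNAPII-pS5 (adjusted p = 0.82).

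At the start of Nab2, the files name the peaks for 1700012D01Rik, whose start lies 420 bp away on the other strand. The highest RNAPII-pS5 peaks there had 16.8 and 14.2 untreated, 13.8 and 11.6 after IL-4, 15.0 and 16.6 after LPS, and 21.0 and 9.07 after both, and these values overlapped. RNAPII-pS2 there had 13.4 and 15.6 untreated, 5.22 and 8.3 after IL-4, 7.23 and 3.9 after LPS, and no peak after both, and the untreated samples were the highest. Summed over peaks named for 1700012D01Rik, RNAPII-pS2 fell with IL-4 (−2.15 ± 0.36, adjusted p = 0.0078) and with pretreatment under LPS (−2.04 ± 0.36, adjusted p = 0.015), the reverse of the signs at the 3′ end of Nab2, and LPS gave −0.73 (adjusted p = 0.17). In RNAPII-pS5 no comparison of 1700012D01Rik was called (adjusted p from 0.41 to 0.99).

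Egr1 and Nab1 gave fewer calls. RNAPII-pS5 over Egr1 was 6.91 and 13.3 untreated, 3.73 and 9.97 after IL-4, 11.2 and 12.6 after LPS, and 6.8 and 6.31 after both, with overlap between groups and no call. In RNAPII-pS2 it was 26.0 and 29.8 untreated, 4.21 and 16.3 after IL-4, 36.1 and 36.4 after LPS, and 20.4 and 13.6 after both. IL-4 gave −1.68 ± 0.55 (adjusted p = 0.072), lost without IL-4 replicate 1 (−0.77), either LPS replicate (both −1.68), ctrl_ctrl replicate 1 (−1.83), ctrl_ctrl replicate 2 (−1.54), or the variance trend, and turned to 0.16 for peaks that were not intergenic. Nab1 had 14.1 and 9.51, 14.7 and 5.44, 7.32 and 12.6, and 8.07 and 18.6 in RNAPII-pS5, in the same order of groups. In RNAPII-pS2 it had 13.7 and 13.7, 10.54 and 7.97, 24.7 and 13.3, and 21.9 and 11.9, and no comparison of Nab1 was called in either form.

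**Figure D3:**
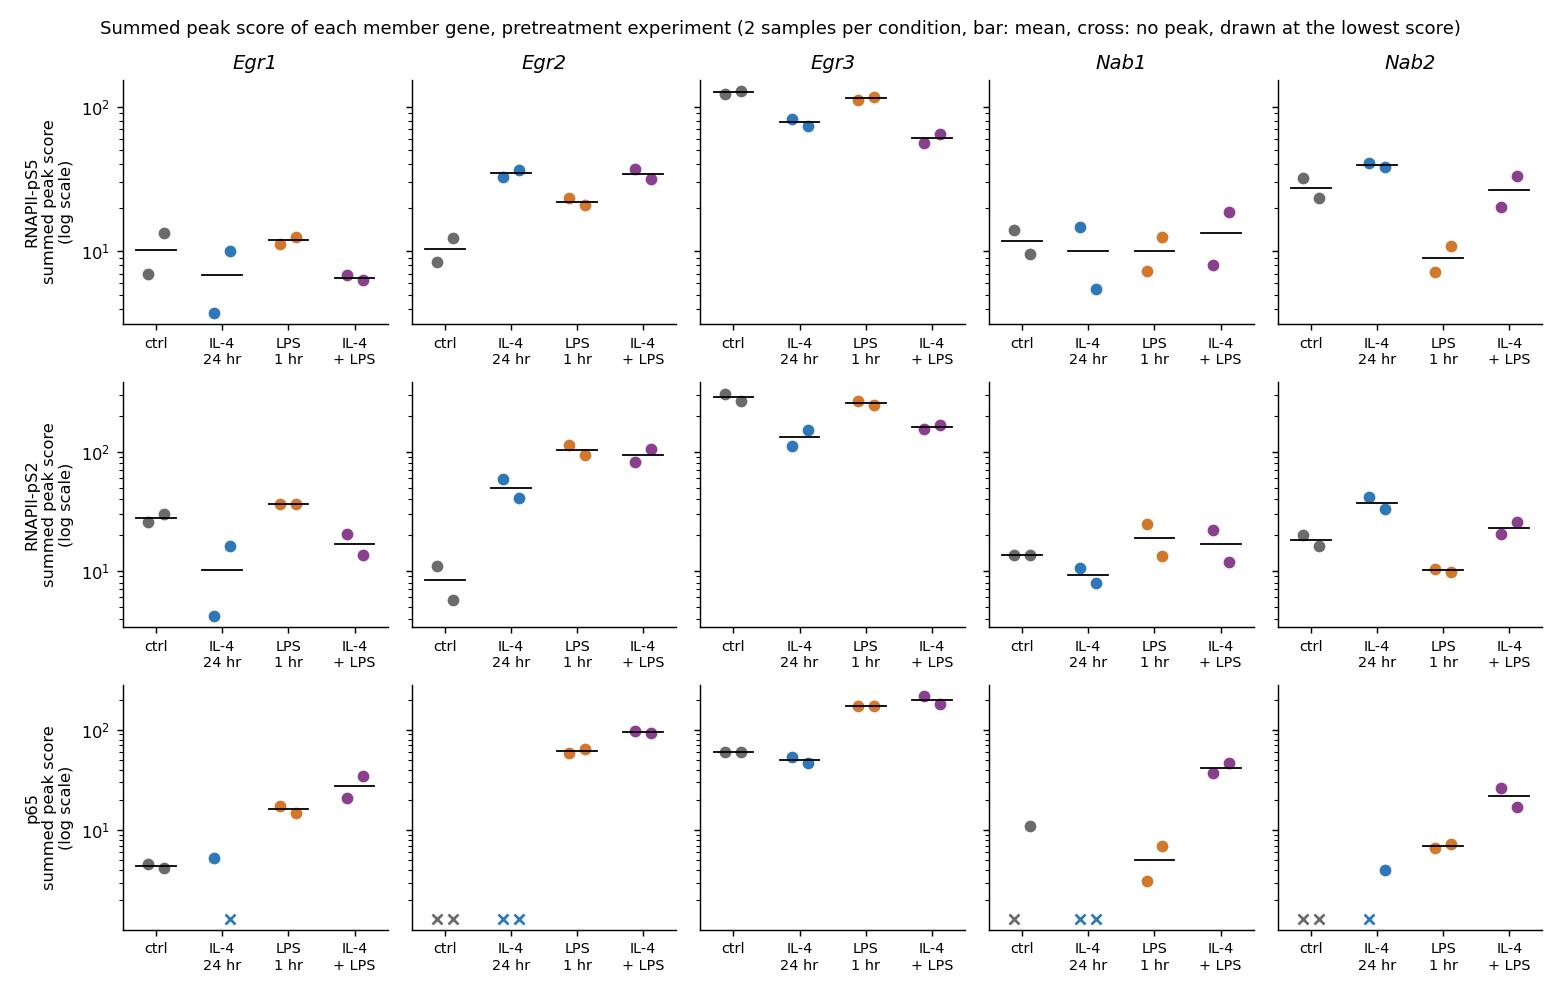
Summed peak score (log axis) of the 5 genes in RNAPII-pS5, RNAPII-pS2, and p65 for untreated, IL-4, LPS, and pretreated LPS samples; points are samples, bars are means of 2 samples, and a cross marks a sample with no peak. Egr2 RNAPII-pS2 rises from 5.68 and 11.0 untreated to 93.4 and 113 after LPS, and Egr2 p65 has points only in the LPS groups.

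Counted over genes, RNAPII-pS5 gave 2 of 5 calls with LPS (40.3% of all genes), 2 of 5 with IL-4 (15.4%), 2 of 5 with pretreatment under LPS (22.4%), and 0 of 5 for the interaction (12.6%), with 2 at an unadjusted p under 0.05. RNAPII-pS2 gave 3 of 5 with LPS (42.8%), 4 of 5 with IL-4 (27.9%), 2 of 5 with pretreatment (19.8%), and 1 of 5 for the interaction (13.3%). For RNAPII-pS5 with LPS, the share was near that over all genes. The comparisons with LPS and with IL-4 share the untreated samples. Centring took out a shift of the median gene by LPS of −0.33 (log2) in RNAPII-pS5 and of 0.22 in RNAPII-pS2, and by pretreatment of 0.29 in RNAPII-pS5.

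**Figure D4:**
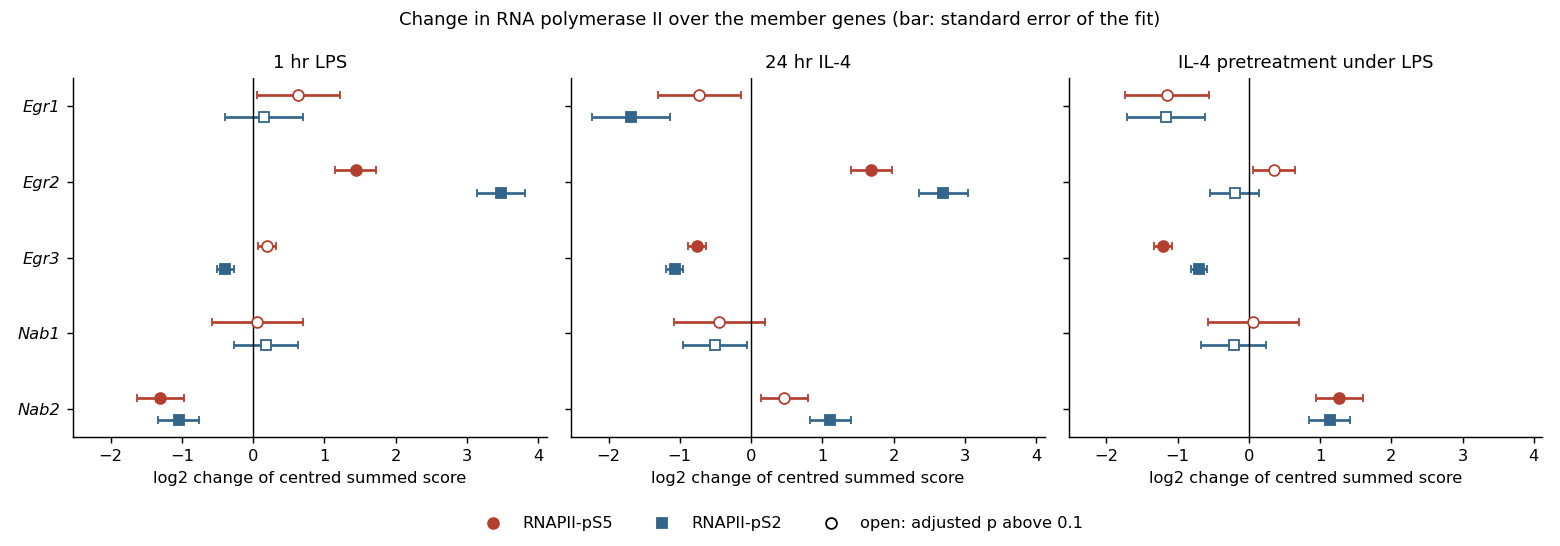
Log2 change of summed score with its SE for the 5 genes in RNAPII-pS5 and RNAPII-pS2, for LPS, IL-4, and pretreatment under LPS, relative to the median gene; filled points are called at an adjusted p of at most 0.1. Egr2 lies above 0 with LPS and IL-4 (3.48 and 2.70 in RNAPII-pS2), Egr3 below 0 with IL-4 and pretreatment, and Nab2 below 0 with LPS and above 0 with pretreatment.

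At single regions the loss near Egr3 was found at −11.3 kb, the place with a peak in every sample. RNAPII-pS5 there was 77.7 and 85.7 untreated, 32.5 and 29.0 after IL-4, 54.1 and 55.5 after LPS, and 11.5 and 15.9 after both. The 4 groups did not overlap, and pretreated LPS cells were the lowest. IL-4 gave −1.43 ± 0.19 (adjusted p = 0.0037) and pretreatment under LPS −2.21 ± 0.19 (adjusted p = 0.0028). RNAPII-pS2 there was 181 and 143 untreated, 53.6 and 64.7 after IL-4, 128 and 105 after LPS, and 47.1 and 46.2 after both. The changes were −1.40 ± 0.12 with IL-4 (adjusted p = 0.0012), −1.26 ± 0.12 with pretreatment under LPS (adjusted p = 0.0013), and −0.67 ± 0.12 with LPS (adjusted p = 0.0074), or −0.47 for LPS without centring. All of these calls held without any 1 library.

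At −20.3 kb of Egr3, RNAPII-pS5 had 36.0 and 34.0 untreated, 29.0 and 34.9 after IL-4, 39.0 and 44.1 after LPS, and 17.1 and 14.5 after both. The pretreated LPS samples were the lowest, at −1.59 ± 0.14 against LPS (adjusted p = 0.0028). The interaction was −1.44 ± 0.20 (adjusted p = 0.0085), and both calls held without any 1 library. The LPS samples were the highest, with a called change of 0.43 against untreated samples. That call was lost without either LPS replicate (0.54 and 0.43), either ctrl_ctrl replicate (0.40 and 0.38), or centring (0.25). Nearer to the gene, at −2.0 kb, the order turned. No peak was listed in the untreated samples, 8.94 and 10.4 after IL-4, 4.96 and 7.02 after LPS, and 20.9 and 22.4 after both. Pretreatment under LPS gave 1.68 ± 0.27 (adjusted p = 0.011), held without any 1 library. The calls against untreated samples (adjusted p = 0.0024 for LPS and 0.0019 for IL-4) ended with a floor 4 times as high. Samples with no peak were set to the lowest score of the antibody, so they have no spread, and the p-values of comparisons with them are too small.

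Near Egr2, polymerase peaks far upstream came with LPS. At −98.6 kb RNAPII-pS5 was listed in the LPS samples at 12.7 and 9.48, in 1 pretreated LPS sample at 3.9, and in no sample without LPS. LPS was called (adjusted p = 0.0059 in limma) without any 1 library. The region entered the fit only through LPS samples, so that call does not test a gain. Pretreatment under LPS was called (−2.40 ± 0.50, adjusted p = 0.028) except without LPS replicate 1 (−2.20). RNAPII-pS2 at −98.5 kb had 1 untreated peak at 5.68, 10.4 and 7.93 after IL-4, 35.5 and 30.4 after LPS, and 27.9 and 37.6 after both, so there both LPS groups were alike high. At −106.8 kb it had 23.8 and 9.39 after LPS, 9.98 and 16.8 after both, and 1 peak of 3.46 after IL-4. LPS was called at both (adjusted p = 0.010 and 0.0080). At −106.8 kb the call ended with the upper 50% of peaks.

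At the Egr2 start the 2 forms and neighbouring regions differed in their order. At 0.6 kb RNAPII-pS5 had 1 untreated peak at 4.9, 23.1 and 17.2 after IL-4, 10.7 and 11.4 after LPS, and 28.3 and 22.3 after both. LPS was called (adjusted p = 0.028), and IL-4 (adjusted p = 0.017) except without IL-4 replicate 1 (2.66). RNAPII-pS2 at 0.2 kb had 1 untreated peak at 4.78, 17.9 and 15.2 after IL-4, 13.8 and 8.33 after LPS, and 10.8 and 15.0 after both. It was highest after IL-4, unlike the summed score (adjusted p = 0.020 for IL-4 and 0.055 for LPS in limma). The call with IL-4 was lost without IL-4 replicate 1 (2.55), and that with LPS without LPS replicate 1 (1.56) or ctrl_ctrl replicate 2 (0.98). At −0.7 kb RNAPII-pS5 was listed only untreated, at 3.49 and 12.4. It was called lower with LPS (−2.01 ± 0.58), except without either LPS replicate (−1.98 and −1.92). With IL-4 it was also called lower (−2.21 ± 0.58), except without either IL-4 replicate (−2.23 and −2.19). RNAPII-pS2 at −0.7 kb was listed only in the LPS samples not pretreated, at 9.05 and 4.61. In both forms the region at −0.7 kb entered the fit only through the group with peaks, so its calls do not test a change.

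In the second experiment, Egr1 had polymerase peaks over its start only with LPS or IL-4. RNAPII-pS2 at 0.3 kb was listed at 11.8 and 11.1 after LPS, at 3.64 and 3.52 in pretreated LPS samples, and in no sample without LPS. Pretreatment under LPS gave −1.62 ± 0.27 (adjusted p = 0.0088), held without any 1 library, and LPS was called against untreated samples (adjusted p = 0.00083) but not with the upper 50% of peaks. The region entered the fit only through LPS samples, so its call against untreated samples does not test a gain. RNAPII-pS5 at 0.2 kb had 11.2 and 9.04 after LPS, 6.8 and 6.31 after both, 1 peak of 5.1 after IL-4, and none untreated (adjusted p = 0.013 for LPS). At −4.8 kb, RNAPII-pS5 was listed only untreated, at 6.91 and 13.3, which was called with LPS and with IL-4 but not with a floor 4 times as high. That region entered the fit only through the untreated samples, so its calls do not test a loss. The summed values of Egr1 therefore join places whose peaks were listed in different groups.

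The region at 6.2 kb of Nab2 spans its 3′ end and that of Stat6. RNAPII-pS2 there had 15.0 and 12.5 untreated, 41.3 and 29.4 after IL-4, 10.4 and 9.9 after LPS, and 16.8 and 20.0 after both. IL-4 gave 1.40 ± 0.27 (adjusted p = 0.012), held without any 1 library, and pretreatment under LPS gave 0.91 (adjusted p = 0.069), a call lost in 6 of the 8 fits without 1 library. RNAPII-pS5 at 5.9 kb had 25.7 and 17.3 untreated, 33.5 and 38.3 after IL-4, 7.13 and 10.8 after LPS, and 14.0 and 19.4 after both. LPS gave −1.08 ± 0.30 (adjusted p = 0.039), lost without LPS replicate 1 (−0.75) or ctrl_ctrl replicate 1 (−0.87). The Nab1 start, at −0.7 kb in RNAPII-pS5, had 4.45 and 6.25 untreated, 6.45 and 5.44 after IL-4, 7.32 and 12.6 after LPS, and 8.07 and 4.99 after both, and was not called.

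Counted over regions, RNAPII-pS5 gave 8 of 13 calls with LPS (5 higher, 42.9% of all regions called), 7 of 14 with IL-4 (4 higher, 24.1%), 4 of 13 with pretreatment under LPS (1 higher, 25%), and 4 of 16 for the interaction (23%). RNAPII-pS2 gave 12 of 24 with LPS (11 higher, 46.4%), 10 of 20 with IL-4 (5 higher, 34.2%), 12 of 26 with pretreatment (4 higher, 26.6%), and 7 of 27 for the interaction (25.7%). The median change of the regions with LPS was 1.05 in RNAPII-pS5, where that of all regions was −0.48, and 1.38 in RNAPII-pS2, where it was −0.09. Of all 124 region calls in both experiments, 69 held in every fit without 1 library. A region with a peak in only 2 samples left the fit when either was left out, so those fits could not test it.

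The p65 subunit of NF-κB enters the nucleus on LPS. Summed over genes and relative to the median gene, Egr2 was the 1 of 5 genes called with LPS, beside 41.9% of all genes, of which 64.6% were higher. Without centring, 4 of 5 were called, all higher, beside 63% of all genes, of which 97.4% were higher. These were Egr2 (5.57), Egr3 (1.51, adjusted p = 0.00029), Nab2 (2.42, adjusted p = 0.014), and Egr1 (1.87, adjusted p = 0.063). No p65 peak of Egr2 was listed in the 4 samples without LPS, against 59.39 and 64.98 after LPS and 97.9 and 92.3 after both (adjusted p = 0.0011 for LPS). Egr2 entered the p65 fit only through LPS samples, so its call with LPS does not test a gain. Pretreatment under LPS gave 0.11 relative to the median gene (adjusted p = 0.86), where centring had taken out a shift of 0.50 (log2). Egr3 had 60.3 and 60.4 untreated, 53.8 and 46.9 after IL-4, 173 and 172 after LPS, and 216 and 181 after both. The LPS samples of Egr3 lay above the others, yet its log2 change was −0.13 (adjusted p = 0.52) relative to the median gene, which LPS moved by 1.64.

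The other 3 genes had lower p65 scores. Egr1 had 4.63 and 4.21 untreated, 5.26 in 1 IL-4 sample, 17.6 and 14.8 after LPS, and 20.7 and 34.6 after both (0.23 for LPS, adjusted p = 0.80). Nab1 had 10.9 in 1 untreated sample, no peak after IL-4, 3.12 and 7.01 after LPS, and 37.2 and 46.9 after both. The pretreated LPS samples of Nab1 stood apart from the rest, with a change of 2.65 ± 0.96 under LPS that was not called (adjusted p = 0.14), and of 3.16 without centring (adjusted p = 0.078). Nab2 had 3.97 in 1 IL-4 sample, 6.67 and 7.35 after LPS, and 26.4 and 17.0 after both (1.09 for pretreatment, adjusted p = 0.32). No gene was called with IL-4 alone (0 of 4, 16.2% of all genes), pretreatment under LPS (0 of 5, 18.6%), or the interaction (0 of 5, 12.6%), with 0, 1, and 1 genes at an unadjusted p under 0.05 in limma, Nab1 in both of the last.

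Within the same genes, single p65 regions moved in both directions. With LPS, 10 of 19 regions were called, all higher (47.7% of all regions), and with pretreatment under LPS 17 of 28, 12 higher and 5 lower (37.8%). The interaction gave 11 of 28 (28.7%), and IL-4 alone 0 of 8 (13.1%), with 1 at an unadjusted p under 0.05. Of the 28 regions, 9 (32.1%) had a peak in both pretreated LPS samples and no other, against 17.4% of 37564 regions in all. These regions entered the fit only through that group, so their calls do not test a gain. The pretreated LPS libraries also listed more p65 peaks in all, 36738 and 38955, against 26305 and 26820 after LPS alone. The part of these totals in the peaks listed only there was not tested. Another 8 (28.6%, against 20.5%) had one in all LPS samples and in no sample without LPS, of which 6 were near Egr2 and 2 near Egr3. These 8 entered the fit only through LPS samples, so their calls with LPS do not test a gain. The 3 regions with a peak in all 8 samples (10.7%, against 10.6%) were all near Egr3.

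At the Egr2 start p65 was lower in pretreated LPS cells, and at the Egr1 start it was higher. The Egr1 region at −0.2 kb had 5.26 in 1 IL-4 sample, 4.71 in 1 LPS sample, and 12.7 and 19.8 after both. Pretreatment under LPS gave 2.41 ± 0.83 (adjusted p = 0.085), a call lost in 5 of 8 fits without 1 library (1.47 without LPS replicate 2). The Egr2 region at −0.4 kb, whose promoter sequence with its CArG box is given above, had 7.58 and 12.9 after LPS, 4.4 and 5.05 after both, and no peak without LPS. Pretreatment under LPS gave −1.34 ± 0.30 (adjusted p = 0.019), lost without either pretreated LPS replicate (−1.28 and −1.40). At −13.7 kb, with the AP-1 match, the order was the other way, with 13.8 and 13.3 after LPS and 21.9 and 26.6 after both. LPS was called there (adjusted p = 0.00092) without any 1 library, while pretreatment (0.56 ± 0.20, adjusted p = 0.090) was lost in 6 of 8 fits without 1 library. The region at −13.7 kb entered the fit only through LPS samples, so its call with LPS does not test a gain. Past the end of Egr2, at 4.6 kb, with the κB and the AP-1 match, peaks of 13.1 and 15.7 were listed in pretreated LPS samples and none elsewhere. That region entered the fit only through the pretreated LPS samples, so its call does not test a gain. At −98.5 kb p65 had 4.74 and 14.9 after LPS and 17.0 and 13.1 after both, so the groups overlapped. LPS was called there (adjusted p = 0.054) but not without either ctrl_ctrl replicate (both 1.57), and the value turned to −0.29 with a floor 4 times as high and to −0.28 with the upper 50% of peaks.

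Upstream of Egr3, p65 at −82.4 kb had 15.7 and 13.6 after LPS, 8.01 and 8.88 after both, and no peak without LPS, and pretreatment under LPS gave −1.06 ± 0.20 (adjusted p = 0.011). At −11.2 kb p65 was listed in every sample, with 18.6 and 25.4 untreated, 11.7 and 15.3 after IL-4, 37.6 and 46.3 after LPS, and 26.9 and 29.4 after both. The change with pretreatment under LPS was −0.84 ± 0.25 (adjusted p = 0.053), a call lost without either pretreated LPS replicate (−0.81 and −0.86), LPS replicate 2 (−0.70), or centring (−0.57). This is the place where both polymerase forms were lowest in pretreated LPS cells. At 3 places peaks were listed in the 2 pretreated LPS samples only. These were −23 kb, with the κB match (15.8 and 14.7), −55.0 kb (10.8 and 7.07), and −98.3 kb (6.38 and 10.1). Such regions entered the fit only through those 2 samples, so a call there does not test a gain. The highest p65 peaks near the 5 genes were at −52.5 kb, with 7.45 in 1 untreated sample, 7.37 and 3.66 after IL-4, 43.8 and 55.4 after LPS, and 64.8 and 42.0 after both. LPS was called there (2.93, adjusted p = 0.034) except without LPS replicate 2 (2.78).

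Near Nab1, 3 of 5 p65 regions, at 30.1, 5.2, and 70.1 kb, had peaks in the 2 pretreated LPS samples and no other. They had 9.28 and 5.24, 3.47 and 8.88, and 9.6 and 3.41. These regions entered the fit only through those 2 samples, so their calls do not test a gain. The call at 70.1 kb was also lost without either LPS replicate (1.86 and 1.85). The region at 29.3 kb had 3.12 in 1 LPS sample and 11.3 and 19.7 in pretreated LPS samples (2.61 ± 0.47, adjusted p = 0.0087), a call lost without pretreated LPS replicate 2 (2.25). Near Egr1, a region at −6.6 kb had 5.58 and 6.77 after LPS and no peak elsewhere, and one at 28.0 kb had 4.57 and 5.04 in pretreated LPS samples only. Each entered the fit only through its 2 samples with a peak, so a call there does not test a change. The single p65 region of Nab2, at 4.6 kb, was that of its summed score.

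**Figure D5:**
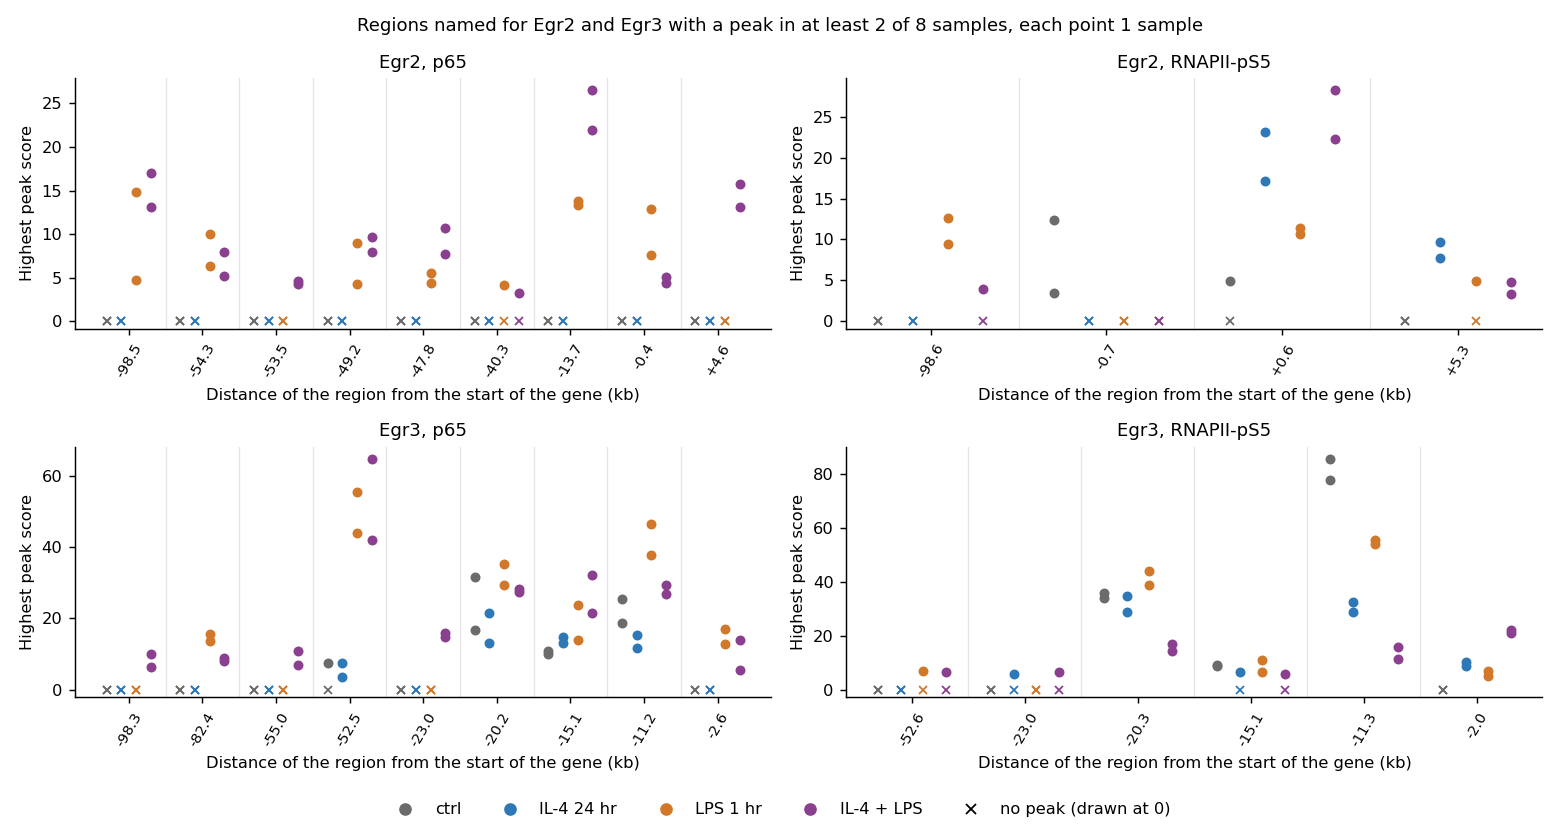
Highest p65 and RNAPII-pS5 score per region near Egr2 and Egr3, placed by kb from the start of the gene; each point is a sample, colour gives the condition, and a cross at 0 marks no peak. RNAPII-pS5 at −11.3 kb of Egr3 runs from 77.7 and 85.7 untreated to 11.5 and 15.9 in pretreated LPS samples, and p65 at −23 kb of Egr3 has points in pretreated LPS samples only.

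Lists of related genes were set beside the 5. Of 17 other immediate early genes, 15 were tested in RNAPII-pS5, and 8 were called with LPS (40.3% of all genes), all higher, with a median log2 change of 0.55 where that of all genes was −0.45. Junb rose by 1.19 ± 0.21 (adjusted p = 0.0079) and Dusp1, a phosphatase of MAP kinases, by 0.68 ± 0.16 (adjusted p = 0.021). With pretreatment under LPS 6 of 15 were called (22.4% of all), all lower, with a median of −0.49 against 0.23, among them Fosb (−1.36, adjusted p = 0.014) and Junb (−0.70, adjusted p = 0.075). With IL-4 for 24 hr 3 were called, near the 15.4% of all genes, Myc higher (1.17, adjusted p = 0.016) and 2 lower, Nr4a1 among them (−1.92, adjusted p = 0.022). With IL-4 for 1 hr none of 15 was called, beside 3.38% of all genes. The interaction gave 3 lower (12.6% of all), among them Fosb (−1.53, adjusted p = 0.046) and Jun (−0.92, adjusted p = 0.047). In RNAPII-pS2 the same list was split, with 6 of 16 called with LPS, 4 higher and 2 lower (42.8% of all), and 6 with pretreatment, 2 higher and 4 lower (19.8%). In p65, 7 of 16 were called with LPS, 3 higher and 4 lower (41.9%), and 2 with pretreatment, both lower (18.6%). Of 10 genes for SRF, its partners, and MAP kinases, 1 was called in RNAPII-pS5 with IL-4 for 1 hr (Elk3, −0.99, adjusted p = 0.040), beside 3.38% of all genes. With IL-4 for 24 hr 2 were called (Mkl2, 2.43, adjusted p = 0.032, and Mapk3, −1.42, adjusted p = 0.046), near the 15.4% of all genes. None was called for the interaction (12.6% of all).

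Over the 8 RNAPII-pS5 samples of the second experiment, the genes whose centred summed scores were most like each member, among 5015 genes with a peak in all 8, were found by Pearson's r as a description, with no test. The samples share conditions, so r follows the group means. For Egr2 they were Fam20c (0.982), Ccdc80 (0.981), and Capg (0.980), and for Egr3 Rbfox1 (0.991), 1700060C20Rik (0.990), and Niacr1 (0.988). For Nab2 they were Myg1 (0.981), Tmed10 (0.976), and Mir3089 (0.968). For Egr1 they were Tmsb4x (0.962), 4930522O17Rik (0.924), and Gdap10 (0.924), and for Nab1 Arpc3 (0.933), Ube2d3 (0.896), and Copa (0.860).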

How the data were processed

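ChIP-seq peak lists of 56 samples from mouse BMDMs, 1 per sample, were used. The authors aligned reads to mm10 and annotated peaks with HOMER by the nearest start, and the submitters' processing notes name BWA 0.7.10, SAMtools 0.1.19, MACS2 2.0.10, and HOMER 4.2. MACS2 was the authors' peak caller for the transcription factors, cofactors, and RNAPII. Its deposited scores were read as −log10 of p or q from their range (lowest 1.3), but the scale is not stated and is uncertain. The H3K27Ac lists hold HOMER's signal, in normalized tags per region of 1001 bp, as deposited by the authors. Depth is unknown, and no interval could be given for single values.

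Scores of peaks named for a gene were summed, and peaks overlapping by at least 1 bp within an antibody and experiment were merged into regions, which took the highest score. Values were put on a log2 scale, a sample without a peak received the lowest score of that antibody and experiment, and samples were centred on the median of features with a peak in every sample. Features with a peak in at least 2 samples were fitted with limma 3.58.1 (variance trend, R 4.3.3) over all features of an antibody and experiment. A change was called at a Benjamini-Hochberg adjusted p of at most 0.1. A call also needed a peak in a compared sample, a condition added after seeing the data. The fit was tested on simulated data. Tables were handled with Python 3.11.15 and pandas 2.3.3.

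By rule, the genes named are the 5 members in each comparison over summed scores, the 3 most alike genes of each and, of the lists, at most the 2 genes with the largest RNAPII-pS5 change among those called. Single regions were described for each member from those with the largest changes and those with peaks in most samples. The members and lists were chosen with earlier results of these data known. The alternatives were no centring, a higher floor, a stricter threshold, no trend, only features with a peak in every sample, an overlap of 100 bp, the upper 50% of peaks, the highest peak of a gene or its peaks that were not intergenic in place of the sum, a replicate block, and leaving out each library. The authors' comparison of reads was not repeated, since no reads were used here. Sequences on chromosome 18, 1 further sequence, and 2 comparisons for 1 of the gene lists are not reported here.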

Additional observations from a re-analysis of the deposited data

Results flagged for a closer look

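The interaction term of the limma fit, the change by LPS in IL-4-pretreated cells minus that in the others, was called at 1 summed score and 10 regions among those described. In RNAPII-pS2 the summed score of Egr2 had an interaction of −2.90. Regions of RNAPII-pS2 had −2.55 at 46.6 kb of Nab1, 1.72 at −52.6 kb of Egr3, and −1.67 at 0.3 kb of Egr1. In RNAPII-pS5 the values were −2.38 at −98.6 kb of Egr2, −1.44 at −20.3 kb of Egr3, and 2.56 at −4.8 kb of Egr1. For p65 they were 1.95 at 30.1 kb of Nab1, 2.42 at 29.3 kb of Nab1, 2.99 at 4.6 kb of Egr2, and 3.08 at −23 kb of Egr3. The region at −20.3 kb of Egr3 had a peak in every sample, as did the summed score of Egr2. In each of the others at least 1 group had a sample with no peak, so these values depend on the lowest score given to it. Without 1 library, the interaction at −20.3 kb of Egr3 was called in every fit. The call was lost for the summed score of Egr2 without pretreated LPS replicate 1 (−2.72) and at 0.3 kb of Egr1 without ctrl_ctrl replicate 1 (−1.61). More than 1 such fit ended the calls at −98.6 kb of Egr2, 46.6 and 29.3 kb of Nab1, and −52.6 kb of Egr3. Examples are −1.65 and 2.06 without pretreated LPS replicate 2, at −98.6 kb of Egr2 and 29.3 kb of Nab1. The regions at −4.8 kb of Egr1, 30.1 kb of Nab1, 4.6 kb of Egr2, and −23 kb of Egr3 had peaks in only 2 samples, both of 1 group. Leaving out either of these samples took the region out of the fit, so leaving out 1 library could not test these calls. These regions entered the fit only through that 1 group, so their calls do not test a difference in the change by LPS. With 2 samples per group, no sample could be tested as an outlier within its group.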

How the results depend on the processing

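Over genes, calls with 1 hr of IL-4 fell from 6 to 2 without centring and to 2 without the variance trend. Without centring, calls over all genes fell as well, from 914 to 59 in RNAPII-pS2, from 455 to 197 in RNAPII-pS5, and from 4357 to 302 in p300. In H3K27Ac they were 5933 and 5907. Those for pretreatment under LPS rose from 4 to 7 with a floor 4 times as high. Those for the interaction rose from 1 to 2 without centring, with the higher floor, and for peaks that were not intergenic, and to 3 with the upper 50% of peaks. Over regions, calls with 1 hr of IL-4 fell from 22 to 10 without centring and to 13 without the trend or with the upper 50% of peaks. Those with LPS fell from 30 to 14 with the upper 50% of peaks, and those with 24 hr of IL-4 from 17 to 9 with the higher floor and 8 with the upper 50%. With a peak required in every sample, region calls were 4 for LPS, 5 for 24 hr of IL-4, 5 for pretreatment (from 33), and 1 for the interaction (from 22), where fewer regions were tested. The interaction over regions gave 12 with the upper 50% of peaks. For the other counts here and in the next paragraph, shares over all features are not given, so these counts describe the fits and not the 5 genes. The cause was not tested where none is given.

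Leaving out 1 library gave 4 to 8, 4 to 7, 4 to 8, 3 to 5, and 0 to 2 gene calls for 1 hr of IL-4, LPS, 24 hr of IL-4, pretreatment, and the interaction, and 13 to 33, 26 to 31, 12 to 18, 19 to 34, and 12 to 22 region calls. The 13 is without p300 IL-4 replicate 1 and the 33 without p300 ctrl replicate 2, and the 19 and the 12 of the interaction are without p65 pretreated LPS replicate 2.

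These signs turned. Egr1 RNAPII-pS2 with 24 hr of IL-4 was 0.16 for peaks that were not intergenic. With the higher floor, the interaction at −52.6 kb of Egr3 was −0.28 (−0.52 with the upper 50%), Nab1 at 46.6 kb was −0.19 for LPS, 0.057 for pretreatment, and 0.0063 for the interaction, p65 at −98.5 kb of Egr2 with LPS was −0.29 (−0.28 with the upper 50%), and the p65 interaction at 30.1 kb of Nab1 was −0.051. Of 70 single values, 59 kept their call without centring, 60 without the trend, 55 with the higher floor, and 56 at an adjusted p of at most 0.05, and all 42 region values kept it with an overlap of 100 bp. No called value changed sign without centring.

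Samples with the same replicate number did not deviate together (r from −0.0476 to 0.066), so the numbers were not taken as pairs. With a replicate block, gene calls were 7, 6, 6, 4, and 1 and region calls 18, 29, 17, 30, and 23 in the order above, and 3 of 70 single calls were lost, Egr3 at −20.3 kb with LPS (0.43), Nab2 at 5.7 kb with 1 hr of IL-4 (0.71), and Nab2 at 6.2 kb with pretreatment (0.91).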
